A study of Mus musculus with 12 samples.

Results

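Expression of 10 genes of intraepithelial lymphocytes was followed in RNA sequencing libraries from the mouse gut, in freshly isolated crypts and in the intestinal monolayers grown from such crypts. The 10 genes are Ptprc, Cd3d, Cd3e, Cd3g, Cd8a, Cd7, Gzma, Gzmb, Nkg7 and Ccl5. They were taken by symbol, each matched to 1 of the 55487 genes of the deposited tables. The 12 libraries came from C57BL/6 mice and formed 4 groups of 3. SI crypts (labelled SIcrypt) were small intestinal tissue of 3 mice and LI crypts (LIcrypt) were large intestinal tissue of 3 mice, male or female and 6 to 10 weeks of age. SI monolayers (SI24h) and LI monolayers (LI24h) were crypt cells cultured on Matrigel for 24 h in control medium, with 3 samples of pooled wells per group. No oncology drug, transgene or deletion was used in any of these groups. The monolayers were seeded in medium with small-molecule inhibitors and growth factors. They were then kept in medium with Wnt3a, EGF, Noggin and R-spondin, which the crypt tissue did not receive. The jejunum was the source of the SI monolayers, and LI crypts passed through a digestion with collagenase and dispase that SI crypts did not. The digestion medium also held 1 of the inhibitors of the seeding medium. Region and isolation method therefore cannot be told apart in any comparison of SI with LI. The methods take the large intestine for culture from the mice that gave the small intestine, the labels tie no library to a mouse, and SI and LI libraries that may share mice were compared as separate samples.

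Intraepithelial lymphocytes are T cells that sit between the epithelial cells of the gut wall. Most carry CD8α together with an αβ or a γδ T cell receptor, and they are held in the epithelium by the integrin CD103 on the lymphocyte, which binds E-cadherin on the epithelial cell. They store granzymes in cytotoxic granules and are known to be far more frequent in the small than in the large intestine. The genes described here cover the shared leukocyte phosphatase CD45 (Ptprc), the signalling chains of the T cell receptor complex (Cd3d, Cd3e, Cd3g), the coreceptor CD8α (Cd8a), the surface glycoprotein CD7 (Cd7), the granzymes A and B (Gzma, Gzmb), the granule membrane protein NKG7 (Nkg7) and the chemokine CCL5 (Ccl5). None of these genes is specific to intraepithelial cells as opposed to other T or natural killer cells.

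The genes lie at 8 places in the genome (GRCm38). Ptprc (ENSMUSG00000026395.16) spans chr1:138062861-138175708, Gzma (ENSMUSG00000023132.8) chr13:113093825-113100981 and Gzmb (ENSMUSG00000015437.5) chr14:56258838-56262260, all on the minus strand. Cd8a (ENSMUSG00000053977.13) spans chr6:71373427-71379173 and Nkg7 (ENSMUSG00000004612.9) chr7:43437073-43438249 on the plus strand, and Cd7 (ENSMUSG00000025163.6) chr11:121036747-121039418 and Ccl5 (ENSMUSG00000035042.2) chr11:83525778-83530518 on the minus strand. The CD3 genes are neighbours, with Cd3g (ENSMUSG00000002033.14) at chr9:44969572-44980431, Cd3d (ENSMUSG00000032094.8) at chr9:44981786-44987339 and Cd3e (ENSMUSG00000032093.7) at chr9:44998740-45009627. Cd3g and Cd3d are read in opposite directions from starts 1355 bases apart. Cd3e shares 135 exon bases with Gm48719 and Cd7 shares 122 with Gm11775, both on the opposite strand. Whether reads were counted by strand was not stated, so reads of these overlaps cannot be assigned with certainty.

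The upstream sequence of the granzyme genes, which fell most in SI culture and differed most between SI and LI crypts, and of the divergent pair Cd3g and Cd3d is printed here. Each run is the 250 bases before the RefSeq start (GRCm38.p6), read 5′ to 3′ on the strand of the gene, at chr13:113100982-113101231 (Gzma, minus strand), chr14:56262335-56262584 (Gzmb, minus strand), chr9:44980432-44980681 (Cd3g, minus strand) and chr9:44981536-44981785 (Cd3d, plus strand). Capitals mark matches on either strand to 5 motifs of factors known from lymphocyte genes and of the core promoter, whose letters are given below the sequences.
Gzma: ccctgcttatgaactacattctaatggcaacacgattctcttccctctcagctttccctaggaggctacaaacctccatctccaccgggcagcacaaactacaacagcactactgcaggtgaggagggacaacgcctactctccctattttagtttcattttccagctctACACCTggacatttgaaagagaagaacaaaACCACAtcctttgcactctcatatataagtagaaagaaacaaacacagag
Gzmb: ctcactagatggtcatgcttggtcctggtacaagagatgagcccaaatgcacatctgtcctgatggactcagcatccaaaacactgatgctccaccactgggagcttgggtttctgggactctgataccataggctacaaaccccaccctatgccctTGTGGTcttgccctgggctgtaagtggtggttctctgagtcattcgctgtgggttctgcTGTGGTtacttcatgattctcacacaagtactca
Cd3g: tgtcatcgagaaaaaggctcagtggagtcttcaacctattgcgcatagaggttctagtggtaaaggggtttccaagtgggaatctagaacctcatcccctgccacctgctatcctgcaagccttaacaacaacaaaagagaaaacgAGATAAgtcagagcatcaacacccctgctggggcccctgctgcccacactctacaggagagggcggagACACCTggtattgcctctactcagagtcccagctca
Cd3d: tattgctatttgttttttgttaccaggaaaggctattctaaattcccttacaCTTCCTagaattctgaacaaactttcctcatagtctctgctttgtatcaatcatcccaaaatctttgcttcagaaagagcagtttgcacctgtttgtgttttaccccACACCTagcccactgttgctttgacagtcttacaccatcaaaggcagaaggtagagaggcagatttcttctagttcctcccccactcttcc

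RefSeq windows were at hand for 8 of the 10 genes, 9 windows in all because Ptprc has 2 that overlap. The T-box letters searched were AGGTGT, which stood in 5 of the 9 windows (Gzma, Cd3d, Cd3e, Cd3g and Nkg7) and in 11.8% of all 32851 upstream windows of this length. For RUNX factors the letters TGTGGT stood in 3 windows (Gzma, Gzmb with 2 matches, and Nkg7), against 14.0% of all windows. For ETS factors the letters AGGAAG stood in 5 (both windows of Ptprc, Cd3d, Cd3e and Nkg7), against 29.5% of all windows. For GATA factors the letters AGATAA stood in 2 (Ptprc and Cd3g), against 9.99% of all windows. The TATA box was searched as TATAAA and stood in 1 window, of Ptprc, against 12.4%. That match lay at -187 to -182 from the start, as TTTATA on the opposite strand, and whether it works as a TATA box was not tested. The Cd8a window held none of the 5, and no matches overlapped within a window. The overlapping windows of Ptprc share 1 ETS match, which is counted in both. It lies at -236 to -231 from the start of 1 window and at -57 to -52 from that of the other. These are letter matches and no binding was measured.

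Values for each library are normalized counts, the deposited counts divided by 1 size factor per library. The libraries held between 59016196 and 76216530 counts on genes. The 10 genes together took 541 to 767 CPM (counts scaled to a common library total) in SI crypts, 49.1 to 68.6 CPM in LI crypts, 22.9 to 25.5 CPM in SI monolayers and 2.78 to 5.04 CPM in LI monolayers. These values are relative to the RNA of the whole library. In these bulk libraries, fewer lymphocytes, less RNA per lymphocyte and more RNA from other cells cannot be told apart. Low counts were even numbers in 74.4% of values from 1 to 25, and 50 of the 60 values of the 10 genes in the monolayers were even. The sources do not say whether each mate counted separately. If so, the number of fragments behind a value is nearer to its count divided by 2.

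Ptprc had 4240.2, 4624 and 2832 normalized counts in the SI crypts and 142, 176 and 159 in the SI monolayers. In the large intestine it had 1239, 947 and 962 in the crypts and 44.3, 66.6 and 43.5 in the monolayers. The groups did not overlap, and every SI group lay above its LI counterpart. CD45 is carried by nucleated blood-derived cells in general, so its RNA also counts B cells, myeloid cells and mast cells.

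The CD3 chains carry the signal of the T cell receptor into the cell. Cd3d had 755, 634 and 577 normalized counts in the SI crypts, 48.0, 37.4 and 47.4 in the SI monolayers, 194, 150.1 and 148 in the LI crypts and 5.78, 9.18 and 11.9 in the LI monolayers. Cd3e had 765, 669 and 462 in the SI crypts, 28.8, 31.2 and 21.9 in the SI monolayers, 122, 102 and 103 in the LI crypts and 1.93, 10.3 and 1.98 in the LI monolayers. The lowest of these Cd3e values rest on 2 counts each, the fewest of any of the 10 genes in any library. Cd3g had 2181, 1704 and 1277 in the SI crypts, 123, 92.6 and 91.2 in the SI monolayers, 251, 190.4 and 173 in the LI crypts and 11.6, 20.7 and 13.8 in the LI monolayers. All 3 CD3 genes kept the same order of groups, with SI crypts highest, then LI crypts, SI monolayers and LI monolayers.

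Cd8a, the chain that most intraepithelial T cells carry as a homodimer or paired with CD8β, had 3637, 2948 and 2392 normalized counts in the SI crypts and 193, 171 and 142 in the SI monolayers. Its values were 379, 255 and 327 in the LI crypts and 21.2, 41.3 and 23.7 in the LI monolayers. Cd7, which marks T and natural killer cells and their precursors, had 2929, 2384 and 2064 in the SI crypts, 168, 145 and 144 in the SI monolayers, 489.6, 364 and 343 in the LI crypts and 15.4, 20.7 and 10.9 in the LI monolayers. Both genes followed the order of the CD3 genes without overlap of any groups.

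Gzma, a granzyme stored in the granules of cytotoxic lymphocytes, was the most abundant of the 10 genes in SI crypts, with 23537, 22821 and 17716 normalized counts, and had 457, 420.2 and 418 in the SI monolayers. Its values in the large intestine were 896, 568 and 828 in the crypts and 13.5, 98.7 and 55.3 in the monolayers. Gzmb, which starts apoptosis in target cells, had 6964, 10131 and 4922 in the SI crypts, 224, 183 and 177 in the SI monolayers, 505, 282 and 396 in the LI crypts and 5.78, 29.8 and 37.6 in the LI monolayers. Replicate 1 of the LI monolayers was the lowest library for both granzymes, and relative to its mean this group spread more widely than the others. Nkg7, needed for the release of these granules, had 1149, 1097 and 875 in the SI crypts, 61.4, 65.9 and 63.8 in the SI monolayers, 182, 179 and 127 in the LI crypts and 9.63, 4.59 and 7.91 in the LI monolayers. Ccl5, a chemokine that draws T cells and is made by activated and memory T cells, had 5431, 4276 and 2981 in the SI crypts, 231, 232 and 233 in the SI monolayers, 531, 354 and 498 in the LI crypts and 55.8, 36.7 and 62.3 in the LI monolayers.

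**Figure D1:**
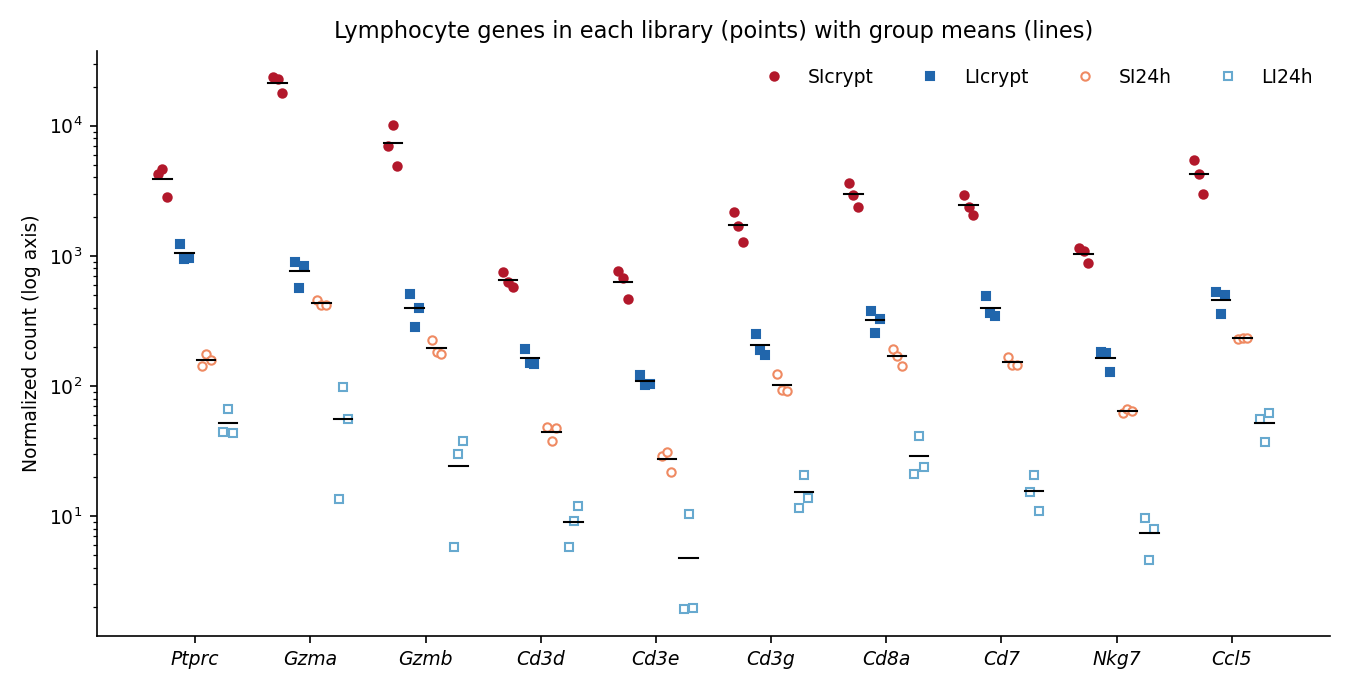
Normalized counts (log axis) of the 10 lymphocyte genes in each of the 12 libraries, as points, with the mean of each group of 3 as a line. Every gene stands in the order SI crypts, LI crypts, SI monolayers, LI monolayers, and the lowest point is Cd3e in the LI monolayers at 1.93.

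All 10 genes stood in the order SI crypts, LI crypts, SI monolayers, LI monolayers with no overlap between neighbouring groups. Of the 19581 genes with enough counts to be tested, 646 (3.30%) stood in this order. All 10 genes passed the filter on low counts. Between libraries, pairs of the 10 genes had Pearson's r of 0.934 to 0.998 (median 0.979 over 45 pairs, 12 libraries, log2 CPM), a description that is set by the groups they share. After the group means were taken off, r lay between -0.66 and 0.90 with a median of 0.44.

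Compared per length, as CPM per kilobase of exon, Gzma led in all groups but shared the lead with Ccl5 in the LI monolayers. In SI crypts Gzma had 316 ± 45.5 CPM per kb (SD, n = 3), Gzmb 76.0 ± 26.7 and Ccl5 65.5 ± 18.8, with Gzmb and Ccl5 within their spread of each other. Cd7 had 32.3 ± 5.67, Nkg7 16.9 ± 2.29, Cd8a 12.2 ± 2.52, Cd3g 7.83 ± 2.04, Cd3d 5.37 ± 0.735, Ptprc 3.17 ± 0.749 and Cd3e 2.30 ± 0.555. In LI crypts Gzma had 11.0 ± 2.45, Ccl5 6.95 ± 1.40, Cd7 5.09 ± 0.959 and Gzmb 3.97 ± 1.10. The mean of Gzmb lay below that of Cd7 there, though their libraries overlapped, and above it in SI crypts. In the LI monolayers Gzma had 0.827 ± 0.629 and Ccl5 0.803 ± 0.208, which is the same within the spread. The annotated exons of Ptprc sum to 18313 bases over all isoforms, which lowers its value per kilobase.

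The comparison of SI monolayers with SI crypts asks how the share of lymphocyte RNA in the libraries differed after 24 h of culture. All 10 genes fell, and the mean normalized count in the monolayers was 2.02% to 6.76% of that in the crypts (median 5.57%). A gene was called changed when edgeR's quasi-likelihood test gave a Benjamini-Hochberg adjusted p under 0.05 over all 19581 genes and the log2 fold change was at least 1 in size. By this rule 26.1% of all tested genes were called in either direction and 16.4% were called lower, against 10 of these 10. In 35.7% of all tested genes the monolayer libraries lay below the crypt libraries without overlap, as they did for all 10. The median log2 fold change was -4.13 for the 10 genes and -0.05 for all tested genes.

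Gzma and Gzmb fell most, by 5.59 ± 0.31 (SE) and 5.20 ± 0.35 on the log2 scale, which left 2.02% and 2.65% of the crypt level. Ptprc fell by 4.58 ± 0.19 and Cd3e by 4.49 ± 0.28. The other 6 lay close together, from -4.15 for Ccl5 through -4.11 for Cd8a, -4.04 for Cd3g, -3.99 for Nkg7 and -3.98 for Cd7 to -3.85 for Cd3d, with SE between 0.16 and 0.22. The largest adjusted p of the 10 was 2.67e-06. The epithelial cell genes of the same libraries did not fall as a list, with 3 of 10 higher and 0 lower, and their summed level was 13993 to 15287 CPM in the crypts and 26750 to 27551 CPM in the monolayers. The keratin genes Krt8, Krt18 and Krt19 stood at 221%, 451% and 353% of the crypt level. The rest of the list lay between 54.8% (Vil1) and 104% (Elf3), so the sum does not stand for each gene.

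The comparison of LI monolayers with LI crypts asks the same of the large intestine. All 10 genes fell there too, to 3.92% to 11.2% of the crypt level (median 5.82%). Of all tested genes 38.0% were called and 23.5% were called lower, and 40.0% lay lower without overlap. The median log2 fold change was -4.06 for the 10 genes and -0.05 for all tested genes. Cd7 fell most, by 4.63 ± 0.27 (SE), followed by Cd3e at -4.52 ± 0.50, Nkg7 at -4.37 ± 0.31 and Ptprc at -4.32 ± 0.25. Ccl5 fell least, by 3.09 ± 0.30, and kept 11.2%. Gzma and Gzmb, which led in the small intestine, were at -3.77 ± 0.46 and -3.98 ± 0.62 here, and Gzmb had the widest error of the 10 genes. The largest adjusted p was 0.000104, for Gzmb. Of the epithelial cell genes 2 of 10 were called higher and 3 lower, and their summed level was 23381 to 23561 CPM in the crypts and 33883 to 34837 CPM in the monolayers. Krt18 and Krt19 stood at 532% and 227% of the crypt level, and the rest of the list lay between 18.4% (Cdx1) and 126% (Krt8).

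**Figure D2:**
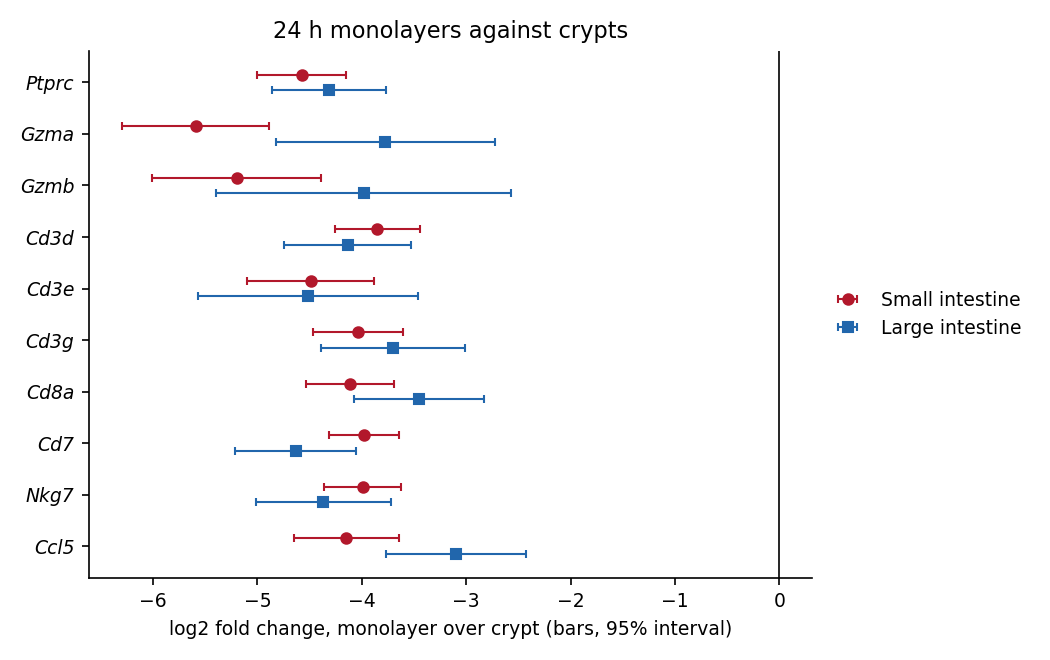
Log2 fold change of monolayers over crypts for the 10 genes in the small intestine (circles) and the large intestine (squares), with 95% intervals as bars. All values lie between -5.59 and -3.09, the granzymes are lowest in the small intestine, and the intervals of Gzmb are widest in the large intestine.

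SI crypts were set against LI crypts to compare the tissues of origin. All 10 genes were higher in SI crypts, by 3.71-fold (Ptprc) to 28.0-fold (Gzma) with a median of 7.39-fold. The rule called 22.7% of all tested genes in either direction and 11.6% of all as higher in the small intestine, and 29.6% were higher without overlap. The median log2 fold change was 2.91 for the 10 genes and 0.06 for all tested genes. The granzymes differed most, Gzma by 4.85 ± 0.30 (SE) and Gzmb by 4.26 ± 0.33 on the log2 scale. Cd8a (3.26 ± 0.18), Ccl5 (3.24 ± 0.21) and Cd3g (3.11 ± 0.19) followed, and Cd3d (2.04 ± 0.17) and Ptprc (1.93 ± 0.17) differed least. The largest adjusted p was 8.85e-06.

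SI monolayers were set against LI monolayers to ask whether the difference between regions was still seen after culture. All 10 genes were higher in SI monolayers, by 3.09-fold (Ptprc) to 9.74-fold (Cd7) with a median of 6.26-fold. Here 21.2% of all tested genes were called, 12.4% were called higher in SI, and 30.6% were higher without overlap. The median log2 fold change was 2.69 for the 10 genes and 0.02 for all. Cd7 (3.32 ± 0.28, SE), Nkg7 (3.09 ± 0.31), Gzmb (3.04 ± 0.63) and Gzma (3.03 ± 0.47) differed most, and Ptprc differed least (1.67 ± 0.26). The largest adjusted p was 0.00144. The 4 comparisons reuse the same 12 libraries, so their values for a gene are not independent of each other.

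**Figure D3:**
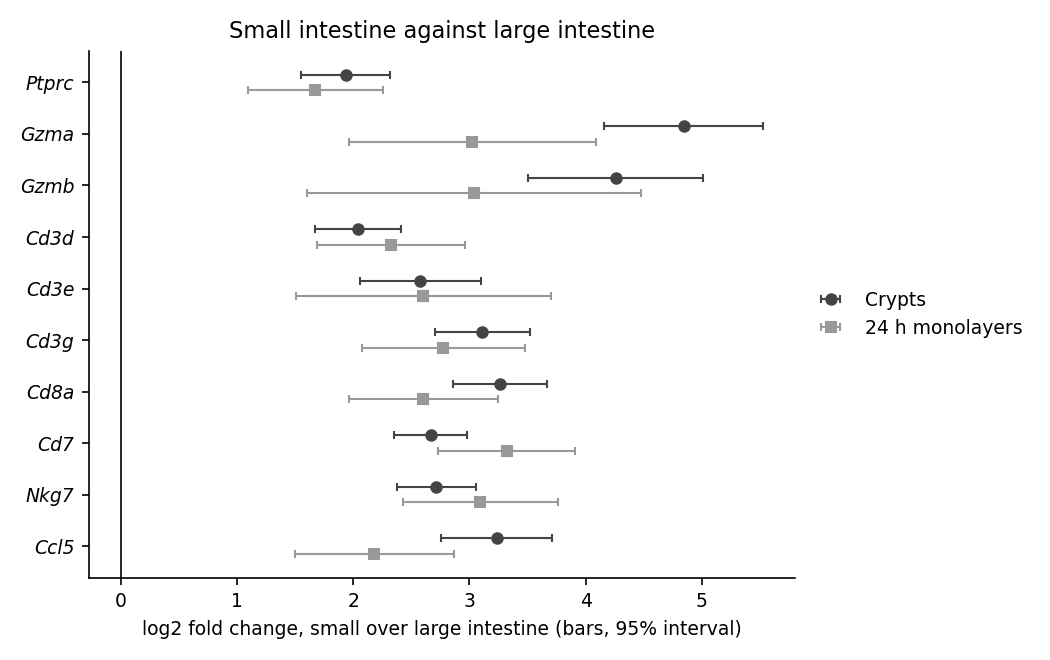
Log2 fold change of small over large intestine for the 10 genes in crypts (circles) and in 24 h monolayers (squares), with 95% intervals as bars. All values are above 0, Gzma has the largest in crypts (4.85), and Ptprc has the smallest in crypts (1.93) and in monolayers (1.67).

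The interaction of region and culture tests whether the log2 change with culture differed between the regions, as SI minus LI. It was called for 2 of the 10 genes, both lower, against 20.0% of all tested genes in either direction and 8.51% lower. Gzma fell more in the small intestine, with an interaction of -1.82 ± 0.55 (SE, adjusted p = 0.0302), and so did Ccl5, with -1.05 ± 0.38 (adjusted p = 0.0441). Gzmb had -1.22 ± 0.71 with an adjusted p of 0.224 and an interval from -2.84 to 0.41. Cd7 had the largest positive value, 0.66 ± 0.31, with an adjusted p of 0.0912. The remaining 6 lay between -0.66 (Cd8a) and 0.38 (Nkg7) with adjusted p of 0.152 or more. Both calls were near the threshold. The Gzma call ended with a replicate block (-1.82, adjusted p = 0.0667) and with no filter on low counts (-1.79, adjusted p = 0.0539). The Ccl5 call ended with upper quartile scaling (-0.97, adjusted p = 0.0582), no filter (-1.02, adjusted p = 0.121) and halved counts (-1.06, adjusted p = 0.0751). The Gzma call was lost when any 1 of these libraries was left out: SI crypt replicates 1 and 2, LI crypt replicate 2, the 3 SI monolayer replicates and LI monolayer replicates 2 and 3, with values between -1.77 and -1.06 and adjusted p from 0.0511 to 0.192. The same held for Ccl5 with SI crypt replicates 1 and 2, LI crypt replicates 2 and 3, the 3 SI monolayer replicates and LI monolayer replicates 1 and 3, with values between -1.12 and -0.79 and adjusted p from 0.0377 to 0.197.

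Levels relative to the CD3 genes describe the other genes per unit of T cell RNA. Each gene's CPM per kilobase was divided by the sum of Cd3d, Cd3e and Cd3g on the same scale, and these ratios were not tested. Gzma was at 18.4 to 21.9 in SI crypts, 6.39 to 7.38 in SI monolayers, 3.41 to 5.15 in LI crypts and 1.86 to 7.05 in LI monolayers. Gzmb was at 3.82 to 6.82, 2.07 to 2.26, 1.18 to 1.73 and 0.560 to 2.32 in the same order of groups. Both granzymes and Ptprc were lower per CD3 in SI monolayers than in SI crypts in every library, while the LI groups overlapped. Cd8a was at 0.783 to 0.800 in SI crypts and 0.423 to 0.562 in LI crypts. Cd7 was at 1.89 to 2.26 over the 9 libraries outside the LI monolayers. Ptprc was at 0.182 to 0.244 in SI crypts, 0.109 to 0.170 in SI monolayers and 0.312 to 0.329 in LI crypts. It was the only one of the 7 genes with a higher ratio in LI crypts than in SI crypts without overlap. As a share of the summed counts of the 10 genes, Gzma took 44.5% to 49.1% in SI crypts, 27.0% to 27.9% in SI monolayers, 16.8% to 21.2% in LI crypts and 7.29% to 29.2% in LI monolayers.

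**Figure D4:**
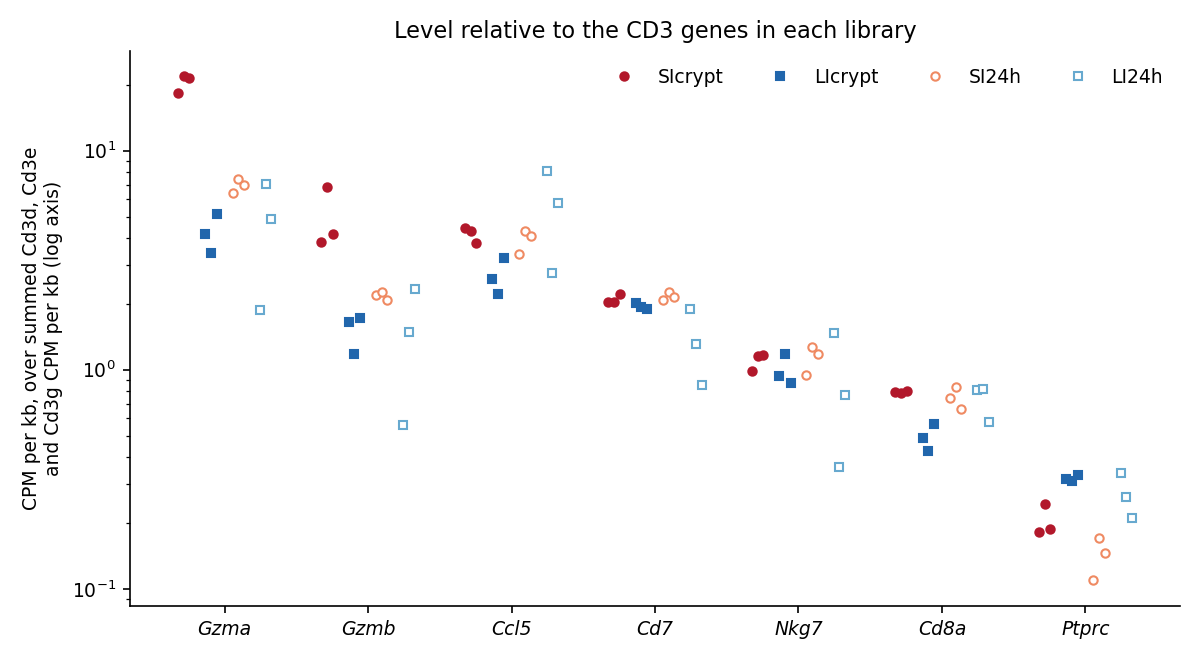
CPM per kilobase of 7 genes divided by the summed CPM per kilobase of Cd3d, Cd3e and Cd3g (log axis), 1 point per library. Gzma in SI crypts stands highest at 18.4 to 21.9, and the LI monolayers, which hold the fewest counts, spread most.

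Of 61 other T cell and cytotoxic lymphocyte genes in 4 lists, all of which passed the filter, 57 fell and 1 rose in SI monolayers against SI crypts, with a median log2 fold change of -3.71. In the large intestine 55 fell and 1 rose (median -3.60). All 14 genes of the T cell receptor and coreceptor list fell in SI and 13 of 14 in LI. The γ chain constant gene Tcrg-C1 was at 1701, 805 and 956 normalized counts in the SI crypts and at 24.0, 35.6 and 17.3 in the SI monolayers. All 12 T cell signalling genes fell in both regions, among them the kinases Lck (-3.48 in SI and -2.95 in LI) and Zap70 (-3.93 and -4.81). Itgae, the CD103 chain that binds E-cadherin, fell by 4.06 in SI and by 3.85 in LI.

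Of the cytotoxic and natural killer receptor list, 16 of 17 genes fell in SI and 15 of 17 in LI. Klrb1a, a receptor of natural killer cells, had 80, 61 and 83 counts in the SI crypts and 0, 2 and 0 in the SI monolayers. Ifng, the gene of interferon γ, had 6, 22 and 8 counts in the SI crypts and 37, 23 and 14 in the LI crypts, and was at 0 counts in all 6 monolayer libraries. At a limit of 3 counts per library, Ifng was at least 4.56-fold lower in the SI and at least 7.35-fold lower in the LI monolayers. Gzmk, another granzyme, had 30, 26 and 18 counts in the LI crypts and 0 in the LI monolayers, at least 7.32-fold lower. Cd244a, a receptor of natural killer and CD8 T cells, fell by 2.04 in SI and had 4, 0 and 0 counts in the LI monolayers against 122, 116 and 104 in the LI crypts. The perforin gene Prf1, which forms the pore that lets granzymes into a target cell, fell by 3.74 in SI and by 3.48 in LI.

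Of the homing, retention and lineage factors, 15 of 18 fell in each region. Ccr9, the receptor for the small intestinal chemokine CCL25, fell by 3.71 in SI and by 2.64 in LI. Gpr15, a homing receptor of colonic T cells, had 4, 10 and 3 counts in the SI crypts and 0 in the SI monolayers, at least 2.18-fold lower. Eomes, a T-box factor of cytotoxic lymphocytes, was the gene that rose in both regions, from 3.53, 14.6 and 9.81 normalized counts in the SI crypts to 28.8, 17.8 and 20.1 in the SI monolayers, and from 8.46, 14.6 and 9.81 to 134, 119 and 102 in the large intestine. Its rise in SI was called with a log2 fold change of 1.26 ± 0.44 (adjusted p = 0.0206) and lost the call without SI crypt replicate 1 (0.90, adjusted p = 0.0832) or SI monolayer replicate 1 (1.07, adjusted p = 0.0738), and when SI crypts and SI monolayers were fitted alone (1.29, adjusted p = 0.0561). Bcl11b and Tcf7, known as T cell factors, were the list's genes that were not called in SI. They stood at 1560 and 538 mean normalized counts in SI monolayers, where Cd3d, Cd3e and Cd3g had 44.3, 27.3 and 102. In the LI monolayers Eomes had a mean of 118 normalized counts, where the same CD3 genes had 8.94, 4.74 and 15.3. Which cells carried Eomes, Bcl11b and Tcf7 was not tested.

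Between SI and LI crypts, 44 of the 61 genes were higher in the small intestine and 1 was lower, with a median log2 difference of 1.81. Ccr9 (3.73), Tcrg-C1 (3.64) and Prf1 (3.47) had the largest differences. The gene that was lower in SI crypts was Klrk1, which encodes the activating receptor NKG2D, with 16, 43 and 28 counts against 98, 82 and 78. Between the monolayers, 37 were higher in SI and 2 lower, with a median of 1.89. Gzmk and Cd244a were among the largest, Gzmk at least 4.36-fold higher, and so was Tbx21, the T-box factor T-bet, with 10, 10 and 18 counts in SI and 2, 0 and 0 in LI. The 2 lower ones were Eomes (-2.38) and S1pr1 (-1.43), a receptor that guides lymphocytes out of tissues and is also found on endothelial cells. The order SI crypts, LI crypts, SI monolayers, LI monolayers without overlap held for 25 of the 61 genes, against 3.30% of all tested genes. In the interaction of region and culture, 4 of the 61 genes were called higher and 7 lower, where 20.0% of all tested genes were called in either direction and 8.51% lower, so that the genes were called about as often as all tested genes. Without LI monolayer replicate 2 the count of calls went from 11 to 7.

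**Figure D5:**
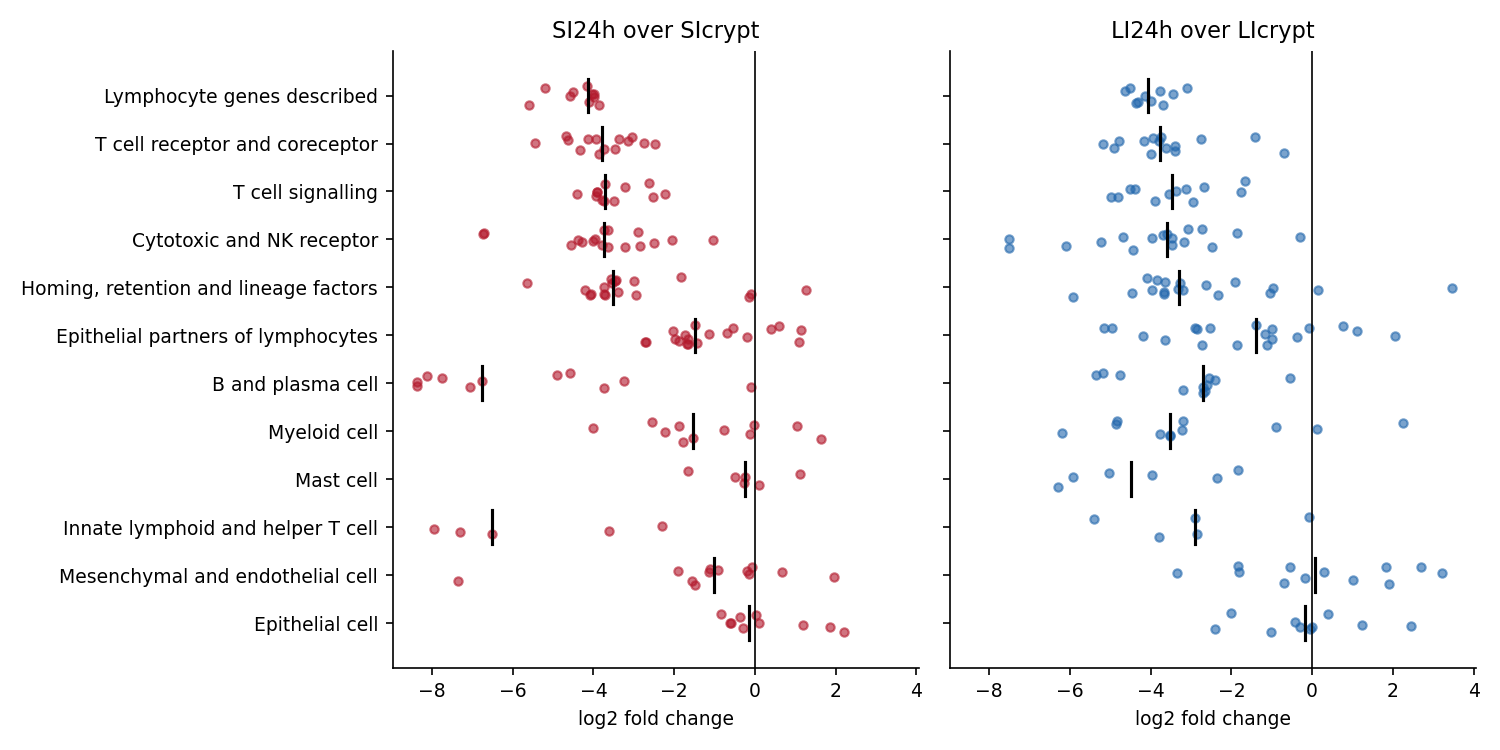
Log2 fold change of monolayers over crypts for each tested gene of the 10 lymphocyte genes and of 11 other lists, with the median of each list as a vertical line, in the small intestine (left) and the large intestine (right). The 10 genes and the T cell lists have medians between -4.13 and -3.30 in both regions, and the mast cell list has a median of -0.25 in SI and of -4.49 in LI.

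Epithelial genes that recruit, hold or engage these lymphocytes moved less as a list, with 12 of 19 lower and 2 higher in each region and medians of -1.47 in SI and -1.39 in LI. Cdh1, the gene of E-cadherin, rose by 1.13 in SI and by 1.10 in LI, and Ulbp1, a ligand of NKG2D, rose by 1.09 and by 2.04. The size of the Ulbp1 rise in SI was under the threshold without SI crypt replicate 1 (0.99) or 3 (0.92). The butyrophilin-like gene Btnl6 fell by 2.73 in SI and by 4.18 in LI. Btnl1, whose product with that of Btnl6 supports intestinal γδ T cells, fell by 1.47 in SI and by 5.14 in LI. H2-T3, which encodes the ligand TL of the CD8α homodimer, fell by 4.96 in LI and was also called lower in SI, and the class I light chain B2m fell by 2.03 in SI and by 1.86 in LI. Ccl25 was higher in SI than in LI by 6.73 in crypts and by 5.38 in monolayers, and Btnl2 was called higher in both, by 4.18 in monolayers. Raet1e was lower in SI in crypts (-3.75) and in monolayers (-2.17), and so was Il18, with -1.18 in crypts. Ccl28, another epithelial chemokine, was lower in SI crypts by 1.90 and had -0.22 in monolayers, and Il7, a growth factor of lymphocytes, was lower in SI in crypts (-1.08) and in monolayers (-1.23).

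Markers of other cells that carry Ptprc, or that could carry some of the other genes, moved as follows, and their part in the values above was not tested. Of all tested genes 16.4% were called lower in SI and 23.5% in LI. Of the B and plasma cell list, 10 of 11 tested genes fell in both regions. Its summed level was 421 to 907 CPM in SI crypts, 236 to 240 CPM in SI monolayers, 334 to 638 CPM in LI crypts and 180 to 188 CPM in LI monolayers. The most abundant gene, Xbp1, is also an epithelial gene and was not called in either region. Xbp1 alone had means of 251, 236, 261 and 177 CPM in these groups. The monolayer sums were therefore nearly all Xbp1 and say little about the other genes. The median log2 fold change of the list was -6.76 in SI and -2.69 in LI. Mzb1 and Tnfrsf17 were at 0 in SI monolayers and Tnfrsf17 in LI monolayers. Of the myeloid list, 5 of 11 fell and 2 rose in SI, and 8 fell and 1 rose in LI, with Cd14 the most abundant gene (summed level 47.6 to 101, 69.8 to 74.4, 126 to 145 and 129 to 130.4 CPM in the same order of groups). The sum in LI was mostly Cd14, with means of 112 CPM in the crypts and 122 CPM in the monolayers. In SI it was mostly Lyz2, with 44.9 and 41.3 CPM. These sums therefore say little about the other genes of the list. Of the 9 genes of the innate lymphoid and helper T cell list that are given here, 4 of 5 tested fell in SI and 3 of 5 in LI. Gata3 was the most abundant of them, and Il22, Il23r, Icos, Cd40lg and Ccr6 were at 0 in the SI and Il22, Il23r, Il17a, Foxp3 and Cd40lg at 0 in the LI monolayers (summed level 1.51 to 2.30, 0.0815 to 0.146, 0.587 to 1.23 and 0.191 to 0.410 CPM).

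The mast cell list parted from the lymphocyte genes by region. In SI monolayers 1 of its 6 genes fell and 1 rose, and its summed level was 47.2 to 52.8 CPM against 52.1 to 92.5 CPM in SI crypts. In LI monolayers all 6 fell, from 69.3 to 75.1 CPM to 9.23 to 10.7 CPM, and Fcer1a, which encodes a chain of the IgE receptor, was at 0. Kit, the most abundant gene of the list and also found outside mast cells, fell by 1.65 in SI and by 2.36 in LI. The mast cell protease Mcpt1, named after its values were seen, had 876, 2038 and 2187 normalized counts in the SI crypts and 1651, 1921 and 1779.9 in the SI monolayers, and 1100.4, 1163 and 1422 against 45.2, 34.4 and 29.6 in the large intestine. Of 12 mesenchymal and endothelial genes, 4 fell in SI, and 3 fell and 4 rose in LI, where 23.5% of all tested genes were called lower and 38.0% in either direction. Col1a1, the most abundant, had 0.67 in SI and 1.01 in LI without a call in either, Cdh5 was at 0 in the SI monolayers, and the list summed to 10.3 to 28.4, 10.2 to 20.2, 39.7 to 61.6 and 35.2 to 56.0 CPM in SI crypts, SI monolayers, LI crypts and LI monolayers. The defining T cell genes Cd3d, Cd3e, Cd3g and Cd8a were above 0 in all 12 libraries.

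The genes whose pattern over the 12 libraries was most like that of the 10 genes were ranked by Pearson's r of log2 CPM with the mean of the 10, among 13470 genes of at least 1 CPM on average. Itgae (0.998) and Slc15a1 (0.998), the intestinal peptide transporter, stood at the top. Tcn2, Dhx35, Inpp5d, Trpm5, Gimap7, Slc35f2, Ccnjl and Fyb followed with r between 0.995 and 0.996. Pearson's r does not measure the size of a change. Dhx35 had mean normalized counts of 2153 in SI crypts, 1389 in SI monolayers, 1666 in LI crypts and 1087 in LI monolayers, a much smaller fall than that of the 10 genes. Fyb is an adaptor of T cell signalling and Inpp5d a phosphatase of blood-derived cells, while Trpm5 is a channel of tuft cells. These values describe 4 groups of 3 libraries, which share their depth and their order, and the ranking was made without a test.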

How the data were processed

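RNA from 12 libraries (4 groups of 3, taken from the sample labels) was sequenced in pairs, and per the labels and the methods the authors aligned reads with STAR 2.7.9a to GRCm38 and counted them on GENCODE vM25 genes with featureCounts 2.0.2. The authors deposited whole-number counts per gene without normalization and a table of normalized signal, in which the counts of each library are divided by 1 DESeq2 size factor. Every column of the 2 tables was tied to a library. Of 55487 gene IDs, 55227 were named from GENCODE vM21 with versions dropped and 260 were not.

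The 10 genes and all other lists were chosen with earlier results of these data known. The deposited counts were tested with edgeR 4.0.16 in R 4.3.3 (filterByExpr by group, 19581 genes kept, TMM, robust quasi-likelihood fit of the 4 group means, Benjamini-Hochberg adjustment over all tested genes per comparison). Calls required an adjusted p under 0.05 and a change of at least 1 in size on the log2 scale. Intervals are 95% and SE are Wald errors of the fit. Log2 CPM used a prior count of 2. Library totals of 59016196 to 76216530 counts set the precision, and a count of 0 was given a limit of 3 counts per library. The limit set for a count of 0 covers counting error only and takes the mean of the other group as exact. If each mate was counted, the limit would be higher and the folds given as at least a value would be smaller. The intervals use the dispersion of the fit and so also hold the spread between libraries. P-values rest on the spread between the 3 samples within groups, which are mice for crypts and pooled wells for monolayers. The 4 groups share 1 estimate of this spread per gene, so no p-value measures the spread of mice alone. By the chi-square given next, crypt libraries differed more from each other (3.63 to 5.16) than monolayer libraries (1.80 to 2.70). Replicate libraries differed from each other by more than sampling noise (median chi-square per gene 1.80 to 5.16, 0.455 for noise alone; 0.900 to 2.58 if each mate was counted).

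All 10 genes were named in the text. Of the 4 lymphocyte lists and of the epithelial partner list, the rule named the 3 largest rises and the 3 largest falls past the threshold in each comparison, and of the other lists the gene of highest mean CPM and genes at 0 in a whole group. Itgae, Lck, Zap70, Bcl11b, Tcf7, Mcpt1, Lyz2 and the named genes of the epithelial cell list were named after their values were seen. The alternatives were DESeq2 1.42.0 (Wald test), upper quartile scaling, no filter, a minimum of 10 counts in each of the libraries, no threshold on the fold change, fits of the compared groups alone, a replicate block, halved counts and each library left out. The fits were tested on simulated data. Upstream windows came from RefSeq (GRCm38.p6), and windows for Cd7 and Ccl5 were not used here. The limit of 25 counts used in comparing replicates and in counting even values was set after the data were seen and enters no test of a gene. One gene of the innate lymphoid and helper T cell list is not reported here, and the list's counts and summed levels leave it out.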

Additional observations from a re-analysis of the deposited data

Results flagged for a closer look

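The results given here were picked out because the change with culture differed between the small and the large intestine by the interaction term of the edgeR fit (SI minus LI, log2 scale), and no explanation of them was weighed.

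Of the 10 lymphocyte genes, Gzma had an interaction of -1.82 (adjusted p = 0.0302), with -5.59 in SI and -3.77 in LI. Ccl5 had -1.05 (adjusted p = 0.0441), with -4.15 in SI and -3.09 in LI. Neither call held throughout, since that of Gzma was lost with a replicate block (adjusted p = 0.0667), with no filter on low counts (adjusted p = 0.0539) and without any 1 of 8 libraries, and that of Ccl5 with upper quartile scaling (adjusted p = 0.0582), with no filter (adjusted p = 0.121), with halved counts (adjusted p = 0.0751) and without any 1 of 9 libraries.

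Among the other lymphocyte genes, Cd244a had 4.05 (adjusted p = 0.000131), Gzmk 3.54 (adjusted p = 0.0463) and Tbx21 2.45 (adjusted p = 0.027), in each case with 0 counts in at least 2 of the 3 LI monolayer libraries. Klrb1a had -4.25 (adjusted p = 0.0171), with 0, 2 and 0 counts in the SI monolayers. Ccl3, a chemokine of activated leukocytes, had -3.47 (adjusted p = 0.00336), with 2, 2 and 10 counts in the SI monolayers and 8, 4 and 12 in the LI monolayers. These fitted values rest on groups near 0 and depend on the prior count. The Gzmk call was lost with DESeq2 (2.87, adjusted p = 0.0577), with halved counts (2.56, adjusted p = 0.143) and without any 1 of SI crypt replicate 1, LI crypt replicates 1 and 2, SI monolayer replicates 1 and 3 and the 3 LI monolayer replicates (3.36 to 3.65, adjusted p from 0.0565 to 0.091). The Tbx21 call was lost with halved counts (2.25, adjusted p = 0.0535) and without SI monolayer replicate 3 or LI monolayer replicate 2 or 3 (2.03 to 2.23, adjusted p from 0.052 to 0.0746), and the Klrb1a call with halved counts (-3.83, adjusted p = 0.0726) and without LI monolayer replicate 3 (-2.64, adjusted p = 0.347). Eomes, which rose in both regions, had -2.20 (adjusted p = 0.00673), with 1.26 in SI and 3.46 in LI.

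Of the epithelial partner genes, Btnl1 had 3.67 (adjusted p = 1.15e-05), H2-T3 2.26 (adjusted p = 0.00116) and Ccl28 1.68 (adjusted p = 8.59e-05), which fell more in LI. Ccl25 had -1.35 (adjusted p = 0.00417), with -1.44 in SI and -0.09 in LI.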

How the results depend on the processing

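The values of the 10 genes in the 4 comparisons of groups kept their direction and their call under every alternative that could be fitted (784 values). These include the setting without a threshold on the fold change, where no call could be lost. They also include fits that left out a library of neither group compared. Requiring 10 counts in every library left Gzmb, Cd3d, Cd3e and Nkg7 untested, so 6 of the 10 genes were called in each of these comparisons, and of the other lymphocyte genes 9 were called in SI, 10 in LI, 8 between crypts, 9 between monolayers and 2 in the interaction, because this filter takes out genes that are low in any group. Leaving out single libraries gave 10 calls among the 10 genes in each of the 4 comparisons. In the interaction, the count of 2 genes became 1 with upper quartile scaling, 0 with no filter on low counts (edgeR, 3 at an unadjusted p under 0.05, while DESeq2 called 2 with the filter), 1 with halved counts and 0 to 2 with single libraries left out, and the cause was not tested. The count of other lymphocyte genes became 6 with halved counts and 7 to 13 with single libraries left out. Interactions close to 0 changed sign when single libraries were left out, Ptprc between -0.44 and 0.0601, Cd3e between -0.25 and 1.28 (also -0.15, -0.05 and -0.23) and Cd3g between -0.51 and 0.0231. Upper quartile scaling moved the median log2 change of all genes in LI from -0.05 to -0.17, and Cdh1 there to 0.98, under the threshold. The replicate numbers are shared by the groups, but same-numbered libraries did not deviate together (r between -0.052 and 0.056), so the numbers were not taken as a pairing, which does not show that SI and LI libraries came from different mice. With a replicate block the interaction was called for 1 of the 10 genes, since Gzma had -1.82 with an adjusted p of 0.0667, and the counts of 10 in the 4 comparisons stayed at 10. Depth limits the LI monolayers most, where the 10 genes had 2 to 86 counts per library.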
